A study of Mus musculus with 12 samples.

Results

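The interferon regulatory factor (IRF) genes on an immunology panel were followed in splenic erythroid cells of the mouse. Members were chosen by gene name: every panel gene called Irf followed by a number was taken, which gave Irf1, Irf3, Irf4, Irf5, Irf7 and Irf8. They are 6 of the 561 genes of the panel, of which 547 are endogenous targets and 14 are housekeeping genes. The nCounter Mouse Immunology v1 panel counts colour-coded probes on single RNA molecules without amplification. RNA came from 500000 cells per sample, selected with magnetic beads for Ter-119, an antigen found on red cells and their precursors, from spleens taken on day 3. All mice were adult males, 3 to 5 months old, of the F1 cross CBA x C57BL/6. Normal mice were kept under standard conditions. Blood loss mice had 0.5 to 0.8 mL of blood taken from the retro-orbital sinus under isoflurane. Hypoxia mice spent 16 h in a hypobaric chamber at -46 kPa, the pressure of an altitude above 4500 m. The series' title concerns erythroid cells that carry CD45 and transcripts of antigen-presenting cells.

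IRF proteins are transcription factors that share a DNA-binding domain and recognise GAAA repeats in the promoters of interferon and interferon-stimulated genes. Irf3, Irf5 and Irf7 are activated by kinases downstream of pattern-recognition receptors and switch on interferon genes. Irf1 is itself induced by interferon gamma and by NF-kappaB, and Irf4 and Irf8 act with partner factors in the development of lymphocytes, macrophages and dendritic cells.

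The promoters of Irf1 and Irf8 are shown because levels of both genes in blood loss samples lay below those in normal samples with no overlap. Each is the 250 bases before the annotated gene start (RefSeq, GRCm38.p6, plus strand), chr11:53769764-53770013 for Irf1 and chr8:120736108-120736357 for Irf8. Capitals mark matches, on either strand, to the gamma-activated site TTCNNNGAA or to the NF-kappaB motif.
Irf1: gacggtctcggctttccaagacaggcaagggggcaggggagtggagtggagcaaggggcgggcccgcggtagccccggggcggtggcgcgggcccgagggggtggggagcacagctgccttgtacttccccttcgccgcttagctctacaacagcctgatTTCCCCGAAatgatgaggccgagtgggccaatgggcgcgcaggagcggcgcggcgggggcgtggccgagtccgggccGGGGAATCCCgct
Irf8: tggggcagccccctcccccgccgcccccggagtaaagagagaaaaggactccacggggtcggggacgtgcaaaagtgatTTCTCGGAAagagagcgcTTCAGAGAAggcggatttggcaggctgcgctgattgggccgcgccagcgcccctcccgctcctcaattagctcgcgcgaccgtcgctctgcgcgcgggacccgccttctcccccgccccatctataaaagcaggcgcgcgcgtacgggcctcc
The shown Irf1 window held 1 gamma-activated site match, TTCCCCGAA, starting 90 bases upstream of the gene start, and 1 NF-kappaB match, GGGGAATCCC, 13 bases upstream. The shown Irf8 window held 2 gamma-activated site matches, TTCTCGGAA at 171 and TTCAGAGAA at 153 bases upstream. No marked match overlapped another. Of 32851 RefSeq promoter windows of this length, 7.02% held a gamma-activated site match and 3.90% an NF-kappaB match. The interferon-stimulated response element, searched as GAAA, any 2 bases and GAAA again, and held by 2.98% of the windows, was matched in no window of the 6 genes. The table holds a second annotated start for Irf1 and for Irf8, whose windows (chr11:53770223-53770472 and chr8:120738389-120738638) lie inside the genes and matched none of the 3 motifs. The windows of Irf3, Irf4, Irf5 and Irf7 matched none either. Those of Irf5 and Irf7 precede starts inside the gene bounds given next, so the whole of the Irf5 window and part of the Irf7 window lie within the gene. A match is a run of letters and not a measured binding site. In GRCm38.p6 the genes lie at chr11:53770014-53778374 (Irf1), chr7:44997648-45002848 (Irf3), chr13:30749233-30766981 (Irf4), chr6:29526130-29541869 (Irf5), chr7:141263183-141266499 (Irf7) and chr8:120736358-120756694 (Irf8).

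Results rest on 3 normal, 4 blood loss and 4 hypoxia samples of the 12 deposited. Normal 4 was not used, since its raw count lay exactly 3 above the median of the other normal samples in all 561 genes. Total raw counts were 43956 to 253712 in normal spleens, 7016 to 31006 with blood loss and 44254 to 81370 with hypoxia, so blood loss samples had the lowest counts. Levels below are housekeeping-scaled counts, raw counts divided by a library factor from 6 housekeeping genes. Of the erythroid marker list, Tfrc, Tal1 and Abcb10 were on the panel, and their summed level was 122 to 156 in normal spleens, 257 to 569 with blood loss and 196 to 772 with hypoxia. Genes listed as markers of other blood cells were counted in every sample, which does not show which cells held them. The summed level of 12 B cell markers was 2226 to 4508 in normal spleens, 1630 to 2662 with blood loss and 1565 to 2346 with hypoxia. That of 20 T and NK cell markers was 1354 to 1645, 797 to 1327 and 604 to 1113, and that of 8 granulocyte markers 1899 to 2677, 3164 to 7145 and 1700 to 3853, in the same order. The summed level of 8 macrophage markers was 164 to 366 in normal spleens, 148 to 271 with blood loss and 32.6 to 167 with hypoxia, and that of 5 dendritic cell markers 1307 to 1901, 1310 to 2069 and 1128 to 2274. Strongly counted genes carry these sums: S100a8 and S100a9 gave most of the granulocyte sum in every sample, and Ccr7 and Cd83 most of the dendritic cell sum. Cd24a gave 1103 of the 2230 of the B cell sum in Hypoxia 2. Of 4 granulocyte markers tested as described below, 2 were higher than normal after blood loss (Camp and S100a9) and 1 lower (Cebpb). After hypoxia 1 was higher (Camp) and 1 lower (Cebpb). Of 10 B cell markers tested, 4 were lower after blood loss and 6 after hypoxia, with none higher. Of 10 T and NK cell markers, 6 were lower and 1 higher after blood loss, and 8 were lower after hypoxia. Of 3 macrophage markers, 1 and 2 were lower. Tfrc and Tal1 were higher after both, and of 3 dendritic cell markers only Cd83 was called, higher after hypoxia. Over all tested genes 17.1% were lower and 9.92% higher after blood loss, and 32.9% and 7.54% after hypoxia. No marker was at 0, since the lowest raw count in the deposited table is 1. Their part in the results below was not tested, and in bulk samples fewer cells of a type cannot be told apart from less RNA per cell. The labels do not say that samples came from separate animals, so the p-values reflect only how samples varied, and this variation may be technical.

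**Figure D1:**
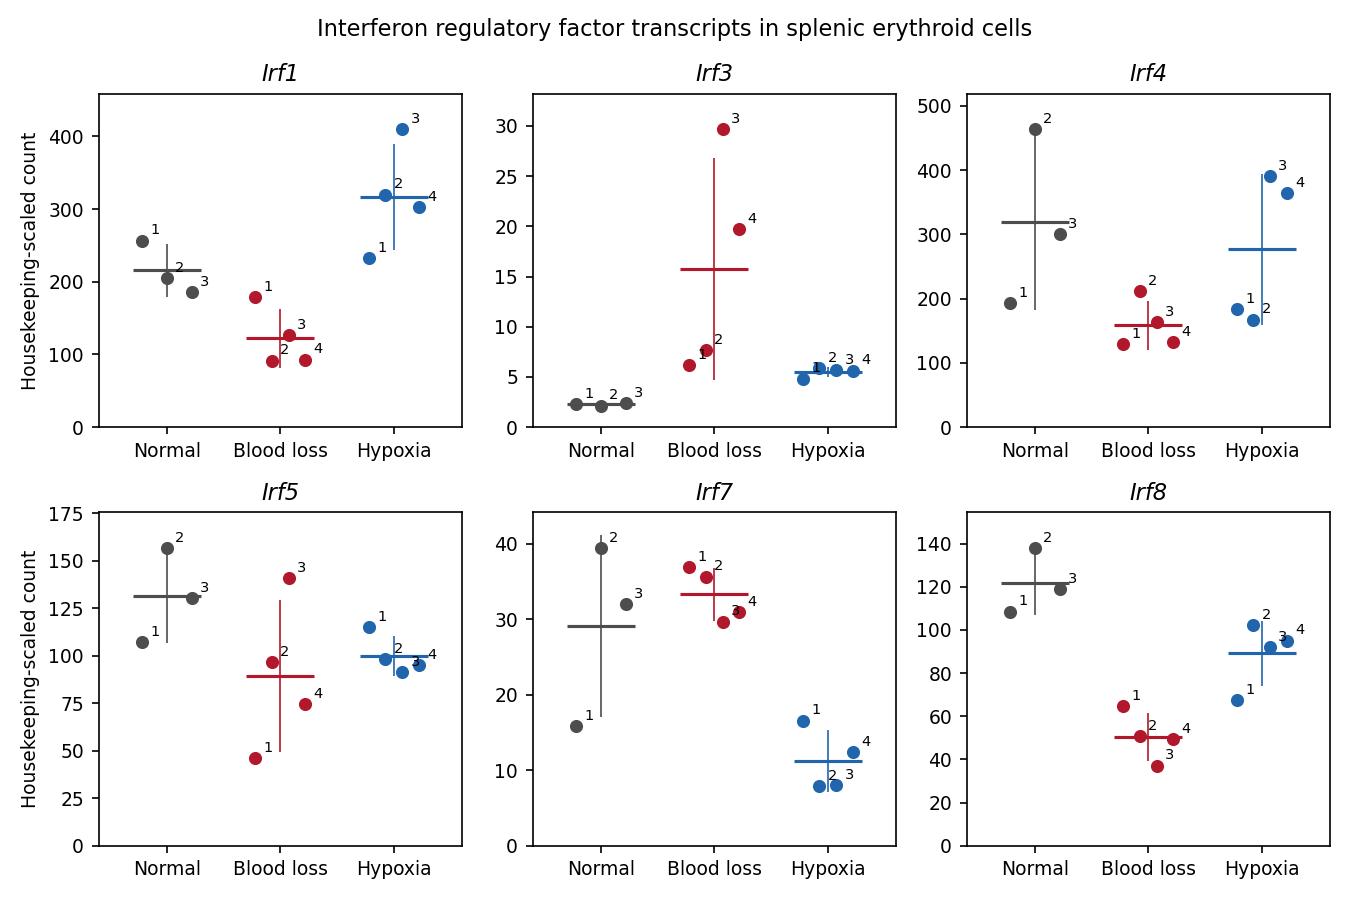
Housekeeping-scaled counts of the 6 IRF genes (vertical axes, linear, starting at 0) in 3 normal, 4 blood loss and 4 hypoxia samples. Points are samples with their replicate number, horizontal bars are group means and vertical lines are 1 SD (cut at 0). Irf8 is below every normal sample in all 4 blood loss samples, and the group mean of Irf1 is highest in hypoxia, at 316, with Normal 1 above Hypoxia 1.

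In the main scaling, Irf1 was the only gene of 252 tested that was called higher after hypoxia than after blood loss. Irf1 and Irf8 were lower after blood loss than in normal samples with no overlap of the groups, and Irf4 was also called lower there. Over all tested genes 27% were called in that comparison and 27.4% did not overlap. The calls of Irf1 and Irf4 were lost under some other library factors and in several fits that left out 1 sample. That of Irf8 was lost with Ptprc as the library factor. Irf7 was called lower after hypoxia than in either other group. It overlapped with normal samples, and the call against blood loss was lost under some other library factors. Irf5 was called in no comparison, and Irf3 had too few counts to be tested. A gene was tested where its raw count reached 20 in at least 4 samples, and 5 of the 6 genes passed. A call needed an adjusted p (Benjamini-Hochberg) under 0.05 in the quasi-likelihood test of edgeR, fitted on all tested genes.

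Irf1, an interferon-inducible activator of class I presentation and antiviral genes, stood at 257, 205 and 186 housekeeping-scaled counts in Normal 1 to 3. In the blood loss samples it stood at 178, 91.6, 126 and 92.8. In the hypoxia samples it stood at 233, 320, 410 and 302. Every hypoxia sample was above every blood loss sample, and Hypoxia 1 was below Normal 1. The normal mean was 216 ± 36.6 (SD, n = 3), the blood loss mean 122 ± 40.7 (SD, n = 4) and the hypoxia mean 316 ± 72.7 (SD, n = 4). Behind these lie raw counts of 227 to 1149 in normal spleens, 17 to 66 with blood loss and 325 to 718 with hypoxia. In the authors' deposited normalized counts, which follow another scaling, Irf1 ran from 189 to 340 in normal spleens, 73.6 to 175 with blood loss and 386 to 671 with hypoxia. On that scale all 4 hypoxia samples lay above all normal samples. The share of all tested genes of which this holds on that scale was not computed.

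Irf3, the constitutively expressed factor that the kinase Tbk1 activates for the first wave of interferon, had raw counts of 2, 7 and 15 in Normal 1 to 3. They were 2, 3, 4 and 14 in the blood loss and 7, 6, 10 and 10 in the hypoxia samples. No sample reached a count of 20. The raw ranges of normal and blood loss samples were nearly the same although total counts differed. Scaled counts were 2.16 to 2.43 in normal spleens, 6.15 to 29.7 with blood loss and 4.82 to 5.90 with hypoxia, with hypoxia samples between the normal and the blood loss samples and no overlap. At these raw counts the scaled difference of Irf3 cannot be told apart from the library factor. Among the 547 endogenous probes of its own sample, Irf3 ranked at percentile 19.2 to 26.0 in normal spleens, 19.6 to 55.2 with blood loss and 38.2 to 45.7 with hypoxia.

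Irf4, a factor of activated B cells, plasma cells and some T and dendritic cells, stood at 193, 463 and 300.4 scaled counts in Normal 1 to 3. It stood at 129, 211, 163 and 132 in the blood loss and 183, 167, 391 and 365 in the hypoxia samples. Hypoxia samples formed a low pair, replicates 1 and 2, and a high pair, replicates 3 and 4, and the highest blood loss sample was above the lowest normal sample. The normal mean was 319 ± 136 (SD, n = 3), the blood loss mean 159 ± 38.1 (SD, n = 4) and the hypoxia mean 276 ± 118 (SD, n = 4).

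Irf5, which carries Toll-like receptor signals to inflammatory cytokine genes in macrophages and B cells, stood at 107, 157 and 130.3 scaled counts in Normal 1 to 3. It stood at 46.1, 96.7, 141 and 74.5 in the blood loss and 115, 98.4, 91.3 and 95.1 in the hypoxia samples. The blood loss samples spread 3.05-fold and enclosed all 4 hypoxia samples. The normal mean was 132 ± 24.8 (SD, n = 3), the blood loss mean 89.6 ± 40.0 (SD, n = 4) and the hypoxia mean 99.96 ± 10.5 (SD, n = 4).

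Irf7, the interferon-induced factor that amplifies interferon alpha production, stood at 15.8, 39.4 and 32.0 scaled counts in Normal 1 to 3. It stood at 36.9, 35.6, 29.7 and 30.9 in the blood loss and 16.5, 7.87, 7.99 and 12.4 in the hypoxia samples. All hypoxia samples lay below all blood loss samples, while Normal 1 lay below Hypoxia 1. The normal mean was 29.1 ± 12.1 (SD, n = 3), the blood loss mean 33.3 ± 3.53 (SD, n = 4) and the hypoxia mean 11.2 ± 4.14 (SD, n = 4). Raw counts were 4 to 22 with blood loss and 8 to 24 with hypoxia, so these levels rest on few molecules. The raw ranges were nearly the same although total counts did not overlap, so the size of the difference depends on the library factor. Its cause was not tested.

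Irf8, a factor of B cells, monocytes and dendritic cells, stood at 108, 138 and 118.99 scaled counts in Normal 1 to 3. It stood at 64.6, 50.9, 37.1 and 49.2 in the blood loss and 67.5, 102, 91.9 and 95.1 in the hypoxia samples. The 3 groups did not overlap, with normal highest and blood loss lowest, although Blood loss 1 and Hypoxia 1 were 64.6 and 67.5. The normal mean was 122 ± 15.0 (SD, n = 3), the blood loss mean 50.4 ± 11.3 (SD, n = 4) and the hypoxia mean 89.2 ± 15.1 (SD, n = 4). Probes differ in efficiency, so levels were compared within a gene and not between genes.

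The first comparison addressed how splenic erythroid cells differ from normal on day 3 after acute blood loss. Of the 5 tested IRF genes, 3 were called lower and none higher. Over all 252 tested genes 27% were called, 17.1% lower and 9.92% higher. Irf8 was lower by 1.24 ± 0.29 on the log2 scale (SE), a 2.36-fold difference, with adjusted p = 0.00265 by edgeR. Irf4 had a log2 fold change of -1.02 ± 0.35 (SE) with adjusted p = 0.0304, and Irf1 one of -0.83 ± 0.30 with adjusted p = 0.0392. The groups did not overlap for Irf1 and Irf8, 2 of the 5 genes, where 27.4% of all tested genes did not overlap and 15.9% were wholly lower. Irf5 had a log2 fold change of -0.64 ± 0.31 (SE) with adjusted p = 0.113, and 2 SE on either side spanned -1.25 to -0.03. Irf7 had 0.14 ± 0.35 (SE) with adjusted p = 0.782. The median log2 fold change of the 5 genes was -0.83, and that of all tested genes was -0.24. The call of Irf1 was lost without any one of Normal 1, Normal 2, Normal 3, Blood loss 2, Blood loss 3 or Blood loss 4 (log2 -0.93 to -0.70, adjusted p 0.0614 to 0.155). That of Irf4 was lost without any one of Normal 2, Normal 3, Blood loss 1, Blood loss 3 or Blood loss 4 (log2 -1.06 to -0.65, adjusted p 0.0588 to 0.231), and Irf5 was called without Blood loss 3 (log2 -0.85, adjusted p = 0.0456).

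The second comparison addressed how the cells differ from normal after acute hypoxia, and it shares its normal samples with the first. Irf7 was the only one of 5 tested IRF genes called, and it was lower. Over all tested genes 40.5% were called, 32.9% lower and 7.54% higher. The log2 fold change of Irf7 was -1.42 ± 0.32 (SE), a 2.68-fold difference, with adjusted p = 0.00122 by edgeR. The groups overlapped for Irf7, since Normal 1 lay below Hypoxia 1. Irf8 was the only one of the 5 tested whose groups did not overlap, lower after hypoxia, where 42.9% of all tested genes did not overlap and 34.1% were wholly lower. Its log2 fold change was -0.46 ± 0.26 (SE) with adjusted p = 0.151. Irf1 had a log2 fold change of 0.56 ± 0.29 (SE) with adjusted p = 0.114, and 2 SE on either side spanned -0.01 to 1.13. Irf4 had -0.21 ± 0.33 (SE) with adjusted p = 0.610, and Irf5 had -0.40 ± 0.28 (SE) with adjusted p = 0.243. The median log2 fold change of the 5 genes was -0.40, against -0.49 for all tested genes. Without Normal 2 the log2 fold change of Irf4 was 0.16.

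The third comparison set both stimuli of red cell production against each other. Of the 5 tested IRF genes, 1 was called higher after hypoxia, Irf1, and 1 lower, Irf7. Over all tested genes 8.73% were called, 0.397% higher, which is Irf1 alone, and 8.33% lower. The log2 fold change of Irf1 was 1.39 ± 0.28 (SE), a 2.62-fold difference, with adjusted p = 0.00565 by edgeR. That of Irf7 was -1.56 ± 0.36 (SE), a 2.95-fold difference, with adjusted p = 0.00788. The groups did not overlap for Irf1, Irf7 and Irf8, where 13.1% of all tested genes did not overlap, 2.78% wholly higher and 10.3% wholly lower. Irf4 had a log2 fold change of 0.81 ± 0.33 (SE) with adjusted p = 0.118, and Irf8 one of 0.79 ± 0.28 with adjusted p = 0.0706. Irf5 had 0.24 ± 0.29 (SE) with adjusted p = 0.670, and 2 SE on either side spanned -0.34 to 0.82. The median log2 fold change of the 5 genes was 0.79, and that of all tested genes was -0.25. The call of Irf7 was lost without Blood loss 2 (log2 -1.53, adjusted p = 0.0501), while Irf8 was called without Blood loss 1 (log2 0.91, adjusted p = 0.0466) and Irf4 without Hypoxia 2 (log2 0.98, adjusted p = 0.0477). The Irf7 call was also lost under some other library factors, given below, with a log2 fold change as small as -0.72. Irf1 was called here under each of 24 settings, with log2 fold changes from 1.24 to 2.24 and a highest adjusted p of 0.0311.

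**Figure D2:**
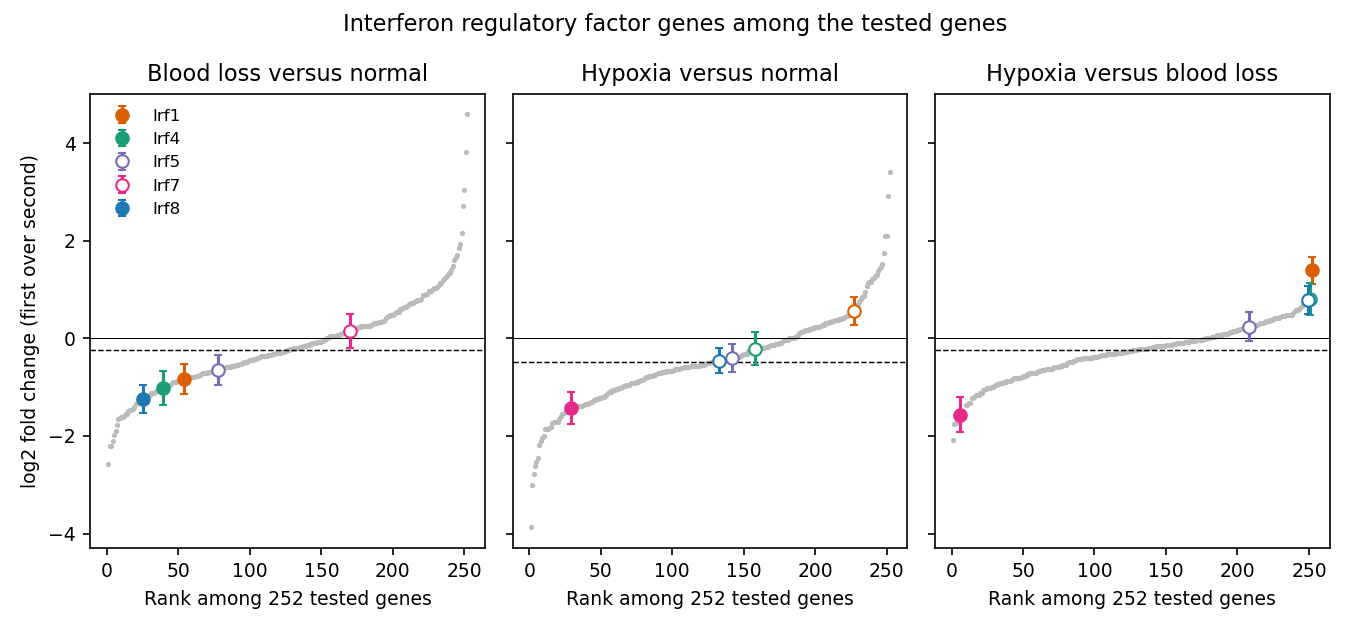
log2 fold changes (vertical axis) of the 252 tested genes in rank order (horizontal axis) in the 3 comparisons, with the median of all tested genes as a dashed line. Coloured points are the 5 tested IRF genes with 1 SE, filled where called at an adjusted p under 0.05. After hypoxia against blood loss Irf1 ranks 1 from the top, Irf4 2, Irf8 4 and Irf7 247.

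How high or low the whole panel lies depends on the library factor, so the members were also placed against the median of all tested genes. In the main scaling that median was -0.24, -0.49 and -0.25 in the 3 comparisons. With the median-of-ratios size factors that the authors' normalized counts follow, it was -0.63, -0.04 and 0.60. The numbers of genes called higher and lower moved with it. For blood loss against normal there were 25 higher and 43 lower in the main scaling, 13 and 114 under median-of-ratios factors, 39 and 32 under TMM factors, 14 and 85 under the full set of 14 housekeeping genes, and 82 and 10 under Ptprc as the factor. For hypoxia against normal there were 19 higher and 83 lower in the main scaling, 51 and 50 with median-of-ratios factors, 54 and 43 with TMM factors, and 78 and 15 with Ptprc. For hypoxia against blood loss there were 1 higher and 21 lower in the main scaling, 96 and 1 under median-of-ratios factors, 7 and 11 under TMM factors, 5 and 1 under the full set of 14 housekeeping genes, 4 and 15 without Rpl19, and 3 and 10 under Ptprc.

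A library factor shifts all genes of a sample alike, so subtracting the median of all tested genes removes most of it by construction. Little change of these values or ranks between scalings is therefore no sign of stability. Over 6 scalings, Irf1 lay 1.58 to 1.65 log2 units above the median in hypoxia against blood loss and ranked 1 of 252 in each. Irf4 lay 1.03 to 1.09 above it, and Irf8 0.99 to 1.04 above it. Irf7 lay 1.30 to 1.34 log2 units below the median in the same comparison. In hypoxia against normal, Irf1 lay 1.01 to 1.05 above the median and was called higher in 3 of the 6 scalings. Irf7 lay 0.86 to 0.93 below it and was called lower in 5 of 6. In blood loss against normal, Irf8 lay 0.97 to 1.04 below the median and was called lower in 5 of 6 scalings, Irf4 lay 0.74 to 0.79 below it and was called in 4, and Irf1 lay 0.57 to 0.68 below it and was called in 4. The sign of the fold change itself turned with the scaling for Irf4, Irf5 and Irf8 in hypoxia against normal and for Irf5 and Irf7 in blood loss against normal.

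**Figure D3:**
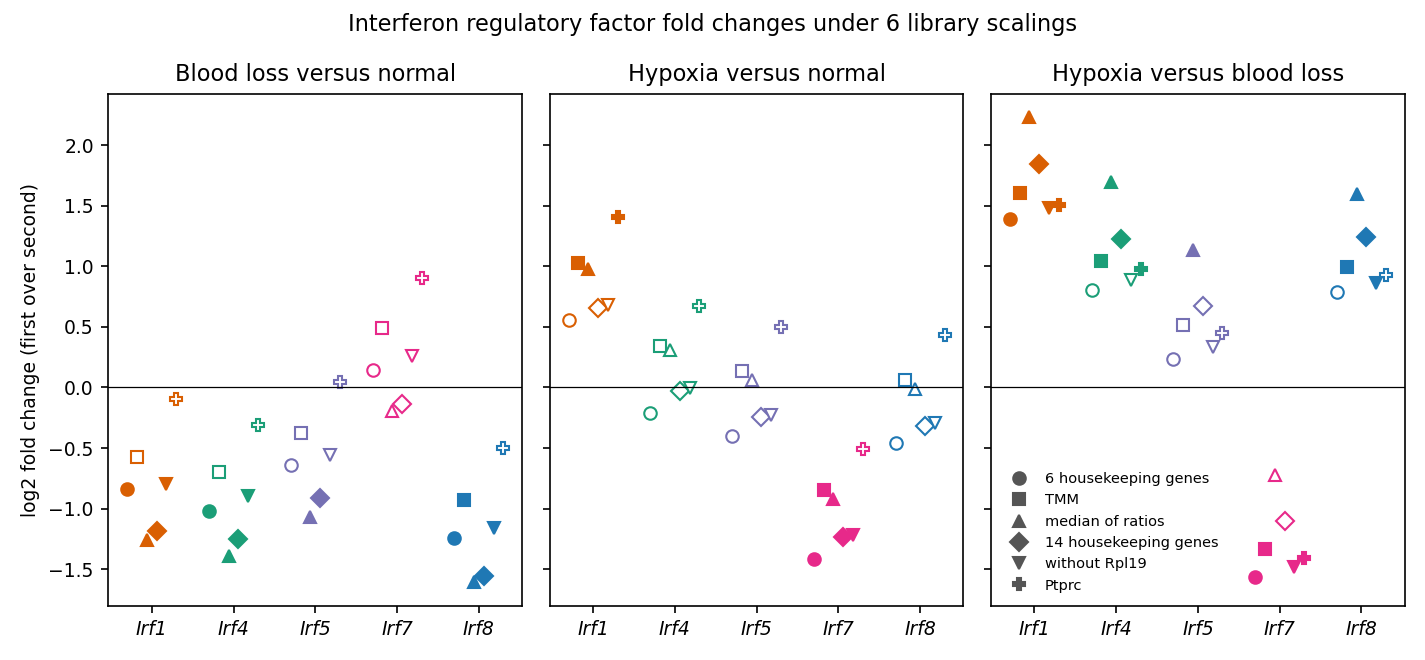
log2 fold changes (vertical axis) of the 5 tested IRF genes (horizontal axis) under 6 library scalings, marked by symbol, in the 3 comparisons. Filled symbols are called at an adjusted p under 0.05. Irf1 is filled in all 6 scalings in hypoxia against blood loss, with the highest value, 2.24, under median-of-ratios factors.

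Ptprc encodes CD45, the surface protein of white blood cells named in the series' title. Its scaled level was 517 ± 61.3 in normal spleens (SD, n = 3), 330.2 ± 97.4 with blood loss (SD, n = 4) and 281 ± 26.9 with hypoxia (SD, n = 4). Raw counts of the members were set against Ptprc of the same sample, which needs no library factor. The ratio of Irf1 to Ptprc was 0.562, 0.353 and 0.361 in Normal 1 to 3. It was 0.682, 0.199, 0.362 and 0.371 in the blood loss and 0.883, 1.27, 1.35 and 0.993 in the hypoxia samples. Every hypoxia sample lay above every other sample on this ratio. With Ptprc as the library factor, Irf1 was called higher after hypoxia than in normal samples, with a log2 fold change of 1.41 and adjusted p = 0.00227 by edgeR. That factor was chosen after the data were seen. It raises the whole panel after hypoxia, since Ptprc itself was lower there, and most genes then called were higher, as counted above. All hypoxia samples also lay above all normal samples in the ratio of Irf5 to Ptprc (0.301 to 0.436 against 0.235 to 0.271) and of Irf8 to Ptprc, while those of Irf4 and Irf7 overlapped. So did they for Irf3 (0.0183 to 0.0234 against 0.00373 to 0.00495), on few raw counts. The share of all tested genes without overlap in their ratio to Ptprc was not computed, so these ratios are not read as particular to IRF genes. The ratio of Irf8 to Ptprc was 0.231 to 0.238 in normal spleens, 0.106 to 0.247 with blood loss and 0.256 to 0.406 with hypoxia. Blood loss 1 was above the normal samples on this ratio, and the blood loss call of Irf8 was lost with Ptprc as the factor, with a log2 fold change of -0.50 and adjusted p = 0.210. The ratio of Irf7 to Ptprc was 0.0347 to 0.0681 in normal spleens, 0.0773 to 0.141 with blood loss and 0.0264 to 0.0627 with hypoxia. The call of Irf7 in hypoxia against normal was lost with this factor, at a log2 fold change of -0.50 and adjusted p = 0.264.

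Ratios between members of related role were taken within each sample as the log2 ratio of raw counts with 1 added to each. Irf8 to Irf4, the pair of lymphoid and myeloid factors, averaged -1.30 ± 0.46 in normal spleens (SD, n = 3), -1.58 ± 0.49 with blood loss (SD, n = 4) and -1.54 ± 0.62 with hypoxia (SD, n = 4). Irf7 to Irf3, the pair of interferon-switching factors, averaged 3.32 ± 0.89, 1.16 ± 1.02 and 0.88 ± 0.60 in the same order. Irf1 to Irf5 averaged 0.71 ± 0.47, 0.49 ± 0.95 and 1.63 ± 0.47. Differences were given an exact two-sided permutation test, adjusted over the 9, in which no adjusted p can be lower than 0.0571 at these sample numbers, so none could pass. The Irf7 to Irf3 ratio differed from normal by -2.16 log2 units after blood loss and by -2.44 after hypoxia, with no overlap in either case. Irf3 raw counts stayed at 2 to 15 while total counts ran from 7016 to 253712, so this ratio rests on few Irf3 molecules in every sample. What part depth has in it was not tested, and no difference in expression is read from it. Both differences from normal had an exact permutation p = 0.0571, the smallest that 3 against 4 samples allow, and adjusted p = 0.257. The Irf1 to Irf5 ratio was higher after hypoxia than after blood loss by 1.14 log2 units, with p = 0.114 by the same exact test and adjusted p = 0.257, and Blood loss 1 lay within the hypoxia range. For Irf8 to Irf4 the differences were -0.27, -0.24 and 0.04 in the 3 comparisons, with adjusted p of 0.771, 0.771 and 0.914 by the exact permutation test.

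**Figure D4:**
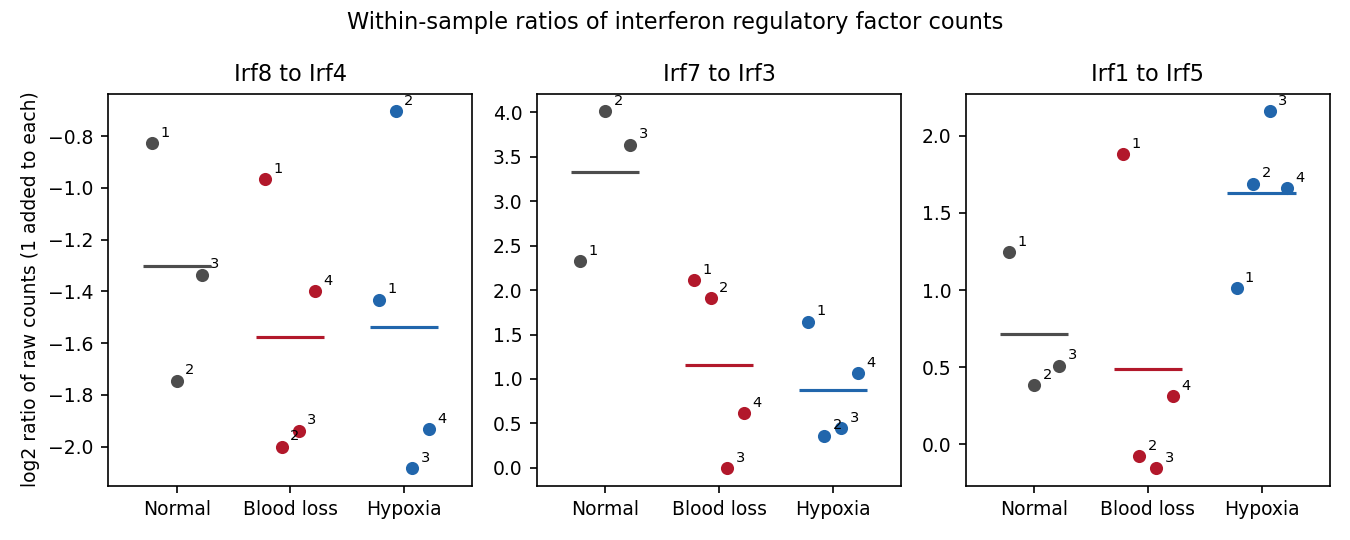
log2 ratios of raw counts, with 1 added to each (vertical axes), for 3 pairs of IRF genes in normal, blood loss and hypoxia samples. Points are samples with their replicate number and bars are group means. Irf1 to Irf5 averages 1.63 in hypoxia and 0.49 in blood loss samples, with Blood loss 1 within the hypoxia range.

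Likeness of pattern was measured as the root mean square difference of log2(scaled count + 1), centred per gene, over the 11 samples. The samples share library factors, and the values are a description. Nearest to Irf1 of 251 other genes were Psmc2, a proteasome subunit, at 0.419, Tollip, an adaptor of Toll-like receptor signalling, at 0.455 and the death receptor gene Fas at 0.486. Irf8 was the fourth nearest to Irf1, at 0.499, where the median over all genes was 0.946. Nearest to Irf8 were Il16 at 0.182, Bcap31 at 0.248 and the class II gene H2-Eb1 at 0.282. Nearest to Irf4 were Bcap31 at 0.340, H2-DMa, a class II peptide-loading gene, at 0.354 and the B cell adaptor Blnk at 0.378. Genes near Irf5 included Ikbkb at 0.161 and Il17ra at 0.228. Nearest to Irf7 were Bcl2 at 0.453, Ncf4 at 0.482 and Irak4 at 0.489. Irf7 ranked 237 of 251 in likeness to Irf1, at 1.40.

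The genes that activate IRF proteins were followed as a list of sensors, adaptors and kinases, of which 17 were on the panel and 12 were tested. After blood loss 3 of the 12 were higher than normal and none lower, where 9.92% of all tested genes were higher and 17.1% lower. Tbk1, the kinase that phosphorylates Irf3 and Irf7, stood at 14.7, 24.0 and 19.7 scaled counts in Normal 1 to 3 and at 46.1, 76.4, 96.4 and 52.0 in the blood loss samples. It was higher in all 4, with a log2 fold change of 1.67 ± 0.32 (SE) and adjusted p = 0.000503, and was called in all 23 alternatives. Raw counts of Tbk1 were 13 to 37 with blood loss and 13 to 122 in normal spleens, where total counts were higher. Irak2 and Irak3, kinases of Toll-like receptor signalling, the latter inhibitory, rose by 1.02 and 1.06 log2 units with adjusted p of 0.0304 and 0.0414. They were called in 15 and 13 of 23 alternatives. The Irak2 call was lost without any one of Blood loss 2, Blood loss 3, Normal 2 or Normal 3, and the Irak3 call without Blood loss 2, 3 or 4 or Normal 1 or 3, with lowest log2 fold changes of 0.57 and 0.64 over all alternatives. Both calls were also lost under median-of-ratios factors, all 14 housekeeping genes and DESeq2. After hypoxia 3 of the 12 were lower than normal and none higher, where 32.9% of all tested genes were lower, a higher share than in the list. They were Ddx58, the RNA sensor RIG-I (log2 -1.51, adjusted p = 0.000319), Ikbke, a kinase related to Tbk1 (log2 -1.37, adjusted p = 0.00174), and Irak4, the first kinase of the Myd88 pathway (log2 -1.40, adjusted p = 0.000793). In hypoxia against blood loss, Irak4 (log2 -1.54, adjusted p = 0.00721) and Tbk1 (log2 -1.16, adjusted p = 0.0120) were lower and none was higher, where 8.33% of all tested genes were lower. Raw counts of Tbk1 were 37 to 47 with hypoxia and 13 to 37 with blood loss, and those of Irak4 13 to 20 and 7 to 21. The raw ranges of Irak4 were nearly the same although total counts differed, so the size of its difference depends on the library factor. The Irak4 call held in 14 of 17 alternatives. It was lost under median-of-ratios factors, all 14 housekeeping genes and DESeq2, down to a log2 fold change of -0.70. That of Tbk1 held in 15 of 22 alternatives. It was lost under those 3 settings, under Ptprc and without any one of Blood loss 2, Blood loss 3 or Hypoxia 3, with log2 fold changes from -1.29 to -0.30 over all alternatives. The list's median log2 fold change was 0.20, -0.17 and -0.65 in the 3 comparisons, against -0.24, -0.49 and -0.25 for all tested genes. With median-of-ratios factors it was -0.17, 0.30 and 0.22.

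Of 8 interferon and interferon receptor genes on the panel, 4 were tested, and Ifngr1, the ligand-binding chain of the interferon gamma receptor, was the only one called, where 27% of all tested genes were called after blood loss and 40.5% after hypoxia. It was lower after blood loss (log2 -0.96 ± 0.30, SE, adjusted p = 0.0204, called in 18 of 23 alternatives and lost without any one of Blood loss 3, Blood loss 4 or Normal 1) and after hypoxia (log2 -0.71 ± 0.28, SE, adjusted p = 0.0443), the latter in 7 of 23 alternatives and with the sign turned under Ptprc. Among the kinases of interferon receptors, Jak2 was higher after blood loss (log2 0.81, adjusted p = 0.0479, called in 9 of 23 alternatives) and Jak1 lower after hypoxia (log2 -0.82, adjusted p = 0.0124, called in 17 of 23 alternatives, lost without Normal 2 and with the sign turned under Ptprc). None of the 4 interferon and receptor genes tested was called in hypoxia against blood loss, nor was Jak1 or Jak2, where 8.73% of all tested genes were called.

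Of 11 interferon-stimulated genes on the panel 5 were tested, and after blood loss 1 was higher, Mx1, and 1 lower, Ifi35, where 9.92% of all tested genes were higher and 17.1% lower. Mx1, an antiviral GTPase, had a log2 fold change of 1.26 ± 0.42 (SE) and adjusted p = 0.0293, on raw counts of 4 to 28 in blood loss samples. It was called in 13 of 22 alternatives, with log2 fold changes from 0.86 to 2.05. The call was lost without any one of Blood loss 3, Blood loss 4, Normal 2 or Normal 3. Ifi35 had -1.15 ± 0.34 (SE) and adjusted p = 0.0155, called in 17 of 22 alternatives and lost without any one of Blood loss 2, Blood loss 4 or Normal 2. None of the 5 was called in either other comparison, where 40.5% (hypoxia against normal) and 8.73% (hypoxia against blood loss) of all tested genes were called. Of 5 tested genes of class I presentation and the immunoproteasome, H2-K1 was lower after blood loss (log2 -1.34, adjusted p = 0.00112), where 17.1% of all tested genes were lower. After hypoxia, where 32.9% of all tested genes were lower, H2-K1 (log2 -0.96, adjusted p = 0.00670) and the peptide transporter Tap1 (log2 -0.78, adjusted p = 0.0263) were lower. They were called in 17 and 12 of 23 alternatives, H2-K1 not without Normal 2 and Tap1 not without Hypoxia 1 or 3 or Normal 2 or 3, and Tap1 turned sign under Ptprc. Of 5 tested partners and targets of Irf4 and Irf8, none was called after blood loss, where 27% of all tested genes were called. Ikzf3 alone was lower after hypoxia than normal (log2 -1.001, adjusted p = 0.0147), where 32.9% of all tested genes were lower. It was called in 14 of 23 alternatives, with log2 fold changes from -1.25 to -0.098, and lost without any one of Hypoxia 1, Normal 2 or Normal 3. Tcf4 alone was lower after hypoxia than after blood loss (log2 -0.82, adjusted p = 0.0472), where 8.33% of all tested genes were lower. The Tcf4 call held in 6 of 22 alternatives, with the sign turned under median-of-ratios factors or DESeq2.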

How the data were processed

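The authors deposited raw counts, whole numbers of at least 1 for 561 genes in 12 columns, and a normalized signal that equals, as computed here, the raw count over its sample's median-of-ratios size factor. The deposited log2 table holds log2 of that signal plus 1. The sources used here give neither the counting software nor how background was handled. The 6 members, the gene lists and the tests were chosen with earlier results of these data known.

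Raw counts of 11 samples were fitted together with edgeR 4.0.16 in R 4.3.3 (robust quasi-likelihood test, one term for group). Each library's factor was a geometric mean over Rpl19, Ppia, Polr2a, Oaz1, Gapdh and Eef1g, the housekeeping genes whose raw count averaged 100 or higher. Their mean scaled counts also differed between groups, for example 661 in normal and 347 in blood loss samples for Eef1g. Rpl19 also varied within the normal samples, at 2286, 450 and 1022 in Normal 1 to 3. That is a 5.08-fold spread, against 1.21-fold with blood loss and 1.09-fold with hypoxia. The filter on low counts (20 or higher in 4 samples) left 252 genes, with p adjusted over all of them. Sample ratios were compared with exact permutation tests in scipy 1.17.1. Alternatives changed the library factor, the filter, the background, the samples, the block or the tool (DESeq2 1.42.0). Alternatives counted beside pathway genes leave out the fit without a filter and those in which the gene was not tested. Named genes were the 6 members, the 3 nearest in pattern to each, up to 4 genes per list with the smallest p, the scaling genes and Ptprc; some genes chosen by these rules are not reported here. The fit was tested on simulated counts. Promoters came from RefSeq (GRCm38.p6), and all 6 members matched by symbol.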

Additional observations from a re-analysis of the deposited data

Results flagged for a closer look

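The summed level of the erythroid markers Tfrc, Tal1 and Abcb10 in hypoxia samples held a sample far from the others. Hypoxia 2 stood at 772 scaled counts, where Hypoxia 1, Hypoxia 3 and Hypoxia 4 stood at 196, 268 and 219. Its gap to the nearest sample was 0.875 of the range of the group, above Dixon's critical value for 4 samples. Chance alone flags about 1 in 20 groups, and 30 groups were examined. In Hypoxia 2 the IRF genes stood at 320 (Irf1), 167 (Irf4), 98.4 (Irf5), 7.87 (Irf7) and 102 (Irf8) scaled counts. Of these the Irf4 and Irf7 levels were the lowest and the Irf8 level the highest of the 4 hypoxia samples.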

How the results depend on the processing

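Irf1 in hypoxia against blood loss was called under every alternative tested. None of the IRF gene results that changed sign was called in the main setting. Of the pathway genes named, Ifngr1, Jak1 and Tap1 in hypoxia against normal and Tcf4 in hypoxia against blood loss were called there and changed sign under an alternative. With TMM factors, log2 fold changes against normal were -0.58 for Irf1 and -0.70 for Irf4 after blood loss (calls lost). After hypoxia they were 1.03 for Irf1 (now called), 0.35 for Irf4, 0.14 for Irf5 and 0.063 for Irf8 (sign turned), and against blood loss 1.05 for Irf4 and 0.995 for Irf8 (now called). With median-of-ratios factors, 127 genes or 50.4% of those tested were called in blood loss against normal (68 or 27.0% in the main setting) and 97 or 38.5% in hypoxia against blood loss (22 or 8.73%). There Irf5 was called at -1.07 and Irf7 turned to -0.20 in the first comparison. In hypoxia against normal Irf1 was called at 0.97, and Irf4 and Irf5 turned to 0.31 and 0.065. In hypoxia against blood loss Irf4, Irf5 and Irf8 were called at 1.70, 1.14 and 1.60, and Irf7 lost its call at -0.72. DESeq2, with the same kind of factors, called 128 (50.8%) and 99 (39.3%) genes in those comparisons. It gave -1.07 (called) for Irf5 and -0.19 (sign turned) for Irf7, 0.97 (called) for Irf1, 0.31 and 0.064 (signs turned) for Irf4 and Irf5, then 1.70, 1.14 and 1.59 (called) for Irf4, Irf5 and Irf8 and -0.73 (call lost) for Irf7.

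With all 14 housekeeping genes, Irf5 was called at -0.92 and Irf7 turned to -0.13 after blood loss. In hypoxia against blood loss Irf4 and Irf8 were called at 1.22 and 1.24, Irf7 lost its call at -1.10, and 6 genes (2.38%) were called. Without Rpl19, Irf8 was called there at 0.87. With Ptprc as the factor, blood loss calls were lost at -0.10 (Irf1), -0.31 (Irf4) and -0.50 (Irf8), and Irf5 turned to 0.049. In hypoxia against normal Irf1 was called at 1.41, Irf4, Irf5 and Irf8 turned to 0.67, 0.50 and 0.43, and Irf7 lost its call at -0.50. Against blood loss Irf4 was called at 0.98, and 13 genes (5.16%) were called. Without a filter 247 (45.2%), 196 (35.8%) and 235 (43.0%) genes were called in blood loss against normal, hypoxia against normal and hypoxia against blood loss, and Irf4 and Irf8 were called in the last at 0.81 and 0.79. That fit gave Irf3, on counts of 2 to 15, log2 fold changes of 2.61, 1.23 and -1.38 with adjusted p of 0.000108, 0.0412 and 0.0186 by edgeR, which cannot be told apart from the library factor. With background subtracted 13 genes (5.16%) were called in hypoxia against blood loss. With Normal 4 in the fit 106 (37.7%), 166 (59.1%) and 43 (15.3%) genes were called in the 3 comparisons, Irf5 was called after blood loss at -0.69, Irf1 after hypoxia at 0.59, and Irf8 in hypoxia against blood loss at 0.78. With Normal 1 as the only normal sample, which is then assumed to vary like the other groups, 16 (7.69%) and 15 (7.21%) genes were called against normal, blood loss first. Irf1, Irf4 and Irf8 lost their blood loss calls at -1.09, -0.29 and -1.07, and Irf4 after hypoxia turned to 0.52. Irf7 could not be tested in that fit, nor in fits of only the 2 groups compared that hold blood loss. This setting and the Ptprc factor were chosen after seeing the data.

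With the replicate number as a block, Irf1 lost its blood loss call at -0.78 (adjusted p = 0.0764), and no other call of an IRF gene changed. Called genes numbered 64, 104 and 17. Samples share only a number: deviations of 10 same-numbered pairs correlated at -0.25 to 0.13, and those of 30 other pairs at -0.17 to 0.18.

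Leaving out each sample in turn, 16.5% to 36.2% of tested genes were called in blood loss against normal, with 38, 42 and 42 genes without Normal 2, Normal 3 and Blood loss 4. In hypoxia against normal the share was 26.1% to 49.0%, with 60 and 65 genes without Normal 2 and Normal 3. In hypoxia against blood loss it was 2.38% (without Blood loss 2) to 16.5% (without Normal 1), and also over 1.5 times below the main count without Blood loss 3, Blood loss 4, Hypoxia 1, Hypoxia 3 or Normal 3, at 3.66% to 5.68%. In blood loss against normal the log2 fold changes ran from -1.10 to -0.70 for Irf1, -1.27 to -0.65 for Irf4, -0.85 to -0.43 for Irf5 and -0.089 to 0.39 for Irf7. In hypoxia against blood loss they ran from 0.59 to 0.99 for Irf4, 0.029 to 0.45 for Irf5, -1.80 to -1.42 for Irf7 and 0.71 to 0.91 for Irf8. In hypoxia against normal they ran from -0.46 to 0.16 for Irf4 and -0.52 to -0.26 for Irf5. Differences of log2 ratios ran from -0.69 to 0.045 for Irf1 to Irf5 in blood loss against normal. They ran from -0.67 to 0.038 for Irf7 to Irf3 and -0.24 to 0.24 for Irf8 to Irf4 in hypoxia against blood loss, and from -0.51 to 0.0024 for Irf8 to Irf4 in hypoxia against normal. The cause of these changes was not tested. Raw counts of 2 to 15 for Irf3, and as low as 4 for Irf7 and 5 for Irf8 in blood loss samples, limit the precision of these genes.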
